A study of Mus musculus with 6 samples.

Results

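The genes that make sterols and fatty acids were examined in microglia lacking Bhlhe41, a basic helix-loop-helix repressor that binds E-boxes. The set holds 32 listed genes, and a probe belonged to it when the transcript accession of the probe, without its version, mapped to a listed symbol. In all, 31 of the 32 genes were measured, by 49 probes, out of 23462 genes named on the array. Acat2 was not analysed here. A total of 16 genes had 1 probe and 15 had several, and each gene is represented by its brightest probe, judged by the mean over both genotypes. All brightest probes are described, and other probes are given beside them or in the account of how probes of a gene differed.

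Sorted microglia of 2 genotypes were hybridised to 1-colour Agilent mouse expression arrays, with 3 samples of each. The Ctrl samples came from Bhlhe41 dTomato-Cre/+ mice, which the study writes as B41HET, and the KO samples from Bhlhe41 dTomato-Cre/dTomato-Cre mice, written as B41KO. Both groups carry a cassette of dTomato, 2A, Cre and a polyadenylation signal ahead of the Bhlhe41 start codon, which ends translation of the protein from that copy. The Ctrl samples therefore carried 1 disrupted copy, and no wild-type sample was on these arrays. The mice were young adults on a C57BL/6 background, and viable CD45lo Cx3cr1+ CD11b+ cells were sorted from Percoll-enriched brain. The methods state that each sample pooled several mice, while the labels speak of 3 mice per genotype. Each error and p-value below therefore measures the spread between samples, which may be pools or single mice.

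Cells build cholesterol from acetyl-CoA through the mevalonate pathway to squalene, and then through lanosterol by a chain of membrane-bound enzymes. Fatty acids start from the same precursor, with Acly, Acaca and Fasn making palmitate and elongases and desaturases lengthening it and adding double bonds. The transcription factors SREBP1 (Srebf1) and SREBP2 (Srebf2) turn on many of these genes together when membrane sterol is low. Scap escorts them out of the endoplasmic reticulum, and Insig1 holds Scap back when sterol is plentiful. Microglia use these routes for their own membranes and for the lipid they handle when they clear myelin and dying cells.

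SREBP proteins bind sterol regulatory elements, often beside an NF-Y box, and as helix-loop-helix proteins they can also bind E-boxes. The promoters of Hmgcs1 (sterol regulatory element), Insig1 (E-box) and Ebp (a gene that passed the test below) are therefore shown, from RefSeq on GRCm38.p6. Each run is the 250 bases before the start of transcription, 5′ to 3′ on the strand of the gene, with matches to the motifs in capitals. They lie at chr13:119690101-119690350 on the plus strand (Hmgcs1), chr5:28071162-28071411 on the plus strand (Insig1) and chrX:8193513-8193762 on the minus strand (Ebp).
Hmgcs1: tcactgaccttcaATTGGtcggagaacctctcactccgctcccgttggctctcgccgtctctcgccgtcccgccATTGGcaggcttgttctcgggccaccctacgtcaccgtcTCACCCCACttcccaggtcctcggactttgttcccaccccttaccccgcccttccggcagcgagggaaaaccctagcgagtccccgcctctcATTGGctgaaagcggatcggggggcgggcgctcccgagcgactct
Insig1: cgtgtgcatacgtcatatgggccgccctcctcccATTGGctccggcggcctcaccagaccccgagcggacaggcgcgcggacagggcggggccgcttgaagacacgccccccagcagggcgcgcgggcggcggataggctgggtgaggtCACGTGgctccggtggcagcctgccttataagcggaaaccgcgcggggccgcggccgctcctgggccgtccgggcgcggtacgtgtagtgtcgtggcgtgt
Ebp: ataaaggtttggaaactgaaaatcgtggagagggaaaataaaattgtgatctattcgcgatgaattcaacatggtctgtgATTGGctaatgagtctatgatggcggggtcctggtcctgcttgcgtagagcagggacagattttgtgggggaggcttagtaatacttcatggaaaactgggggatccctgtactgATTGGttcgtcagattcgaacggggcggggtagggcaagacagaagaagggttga

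The motifs searched on both strands were the E-box CACGTG, which reads the same on both strands, the sterol regulatory element TCACNCCAC and the NF-Y box CCAAT. Hmgcs1 held the sterol regulatory element TCACCCCAC starting 137 bases upstream and 3 NF-Y boxes, each read as ATTGG on this strand. Insig1 held an E-box starting 101 bases upstream and 1 NF-Y box, and Ebp held 2 NF-Y boxes, no E-box and no sterol regulatory element in these letters. No match overlapped another in these windows. Of the 32 genes, 25 had a promoter entry, and Fdft1, Fads1, Fdps, Sqle, Scd1, Scd2 and Stard4 did not.

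Across those 25 genes, 6 (24.0%) had an E-box in the window, against 6.86% of the 27025 genes with an entry. The 6 were Dhcr7, Elovl5, Hsd17b7, Insig1, Sc5d and Scap. The NF-Y box stood in 19 of the 25 (76.0%, against 37.5% of all genes), and the sterol regulatory element in 1 (4.0%, against 1.22%), which was Hmgcs1. None of the 6 genes with an E-box passed the test for a difference between KO and Ctrl described next, which 5.45% of all genes passed. The log2 fold changes of the 6 ran from -0.48 (Insig1) to 0.25 (Elovl5). A match of letters is a description of the window and not a bound site.

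The 31 genes did not move together in KO microglia. Fdft1, which makes squalene, fell to 0.443 times its Ctrl level on the brightest of its probes. Fads1, the delta-5 desaturase of polyunsaturated fatty acids, fell to 0.698 times, a call that no fit with a sample left out kept. Ebp, a sterol isomerase, rose to 1.58 times on the probe that stood for it, and its second probe did not follow. The calls used limma on quantile-normalised log2 signals with Benjamini-Hochberg adjustment over 56601 probes, and a gene was called at an adjusted p of at most 0.05 with a log2 fold change of at least 0.5 in size, as in the methods. By this rule 2 of the 31 genes were lower and 1 was higher in KO, where 5.45% of all 23462 genes were called (4.01% lower and 1.44% higher). Over single probes, 2 of the 49 were lower and 1 was higher, where 5.07% of all 56601 probes were called (3.34% lower and 1.72% higher). Neither share of the set stood far from that of the array. In bulk samples such as these, fewer cells of a type and less RNA per cell cannot be told apart.

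**Figure D1:**
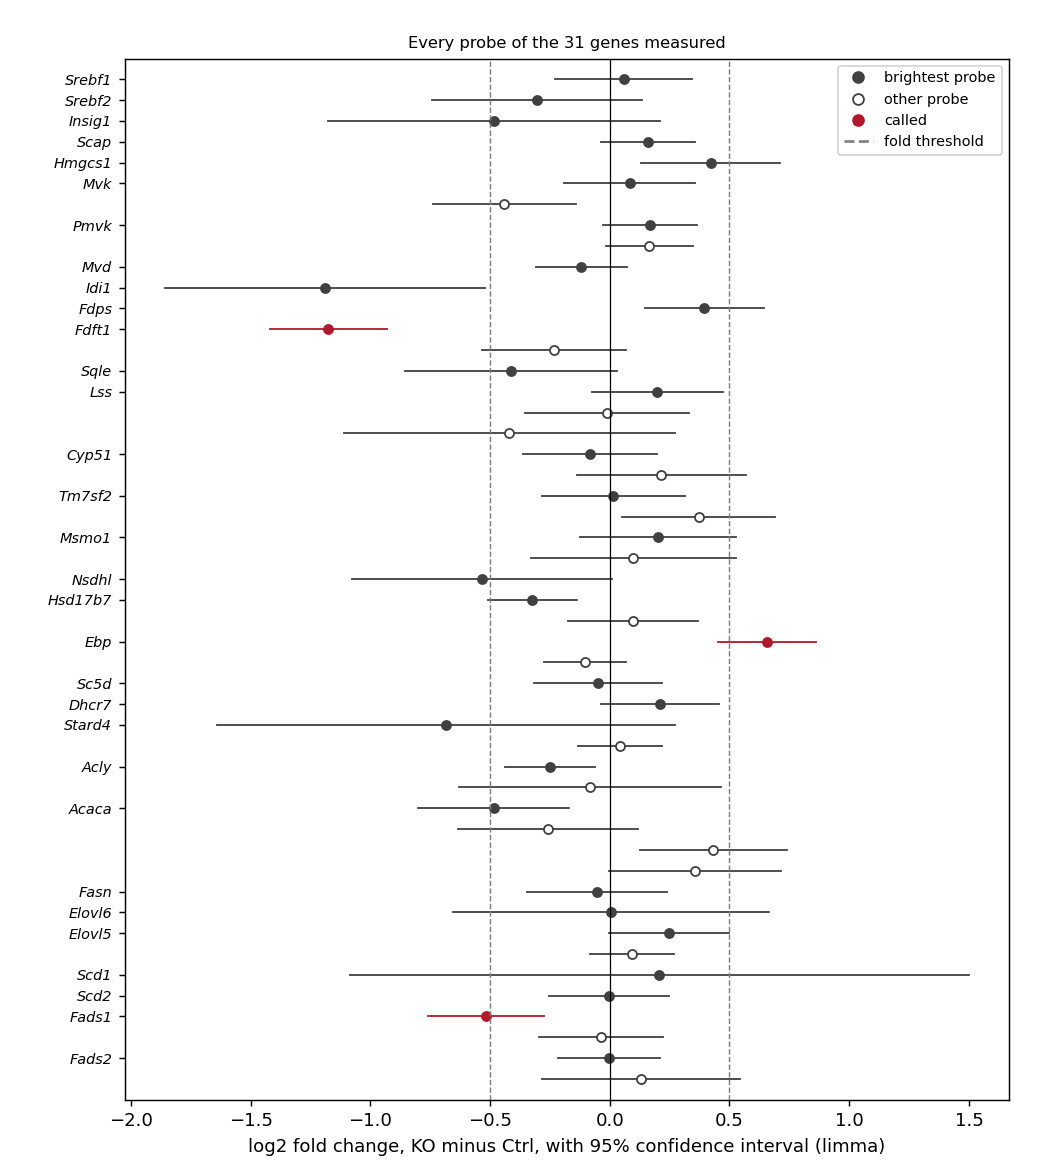
Log2 fold change of KO minus Ctrl with its 95% confidence interval from limma, for each of the 49 probes of the 31 genes. Filled points are the brightest probe of a gene, open points its other probes, red points the 3 called probes (Fdft1, Ebp and Fads1), and dashed lines the fold threshold of 0.5. No second probe of a called gene was called.

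Of the 31 genes, 17 were lower and 14 higher in KO by their brightest probe, and the median log2 fold change was -0.0037, against 0.0067 over all genes. The median size of the change, whatever its sign, was 0.21, against 0.19 over all genes. The change was under 0.5 in size for 25 of the 31. The 95% confidence interval lay wholly within 0.5 of zero for 15 of the 31 (48.4%), against 46.1% of all genes. For every other gene of the set the interval reached beyond 0.5 on one side or both, so that the 3 samples of each genotype did not bound those changes below that size. At an unadjusted p under 0.05, limma gave 6 lower and 3 higher genes of the set (29%, against 25% of all genes).

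**Figure D2:**
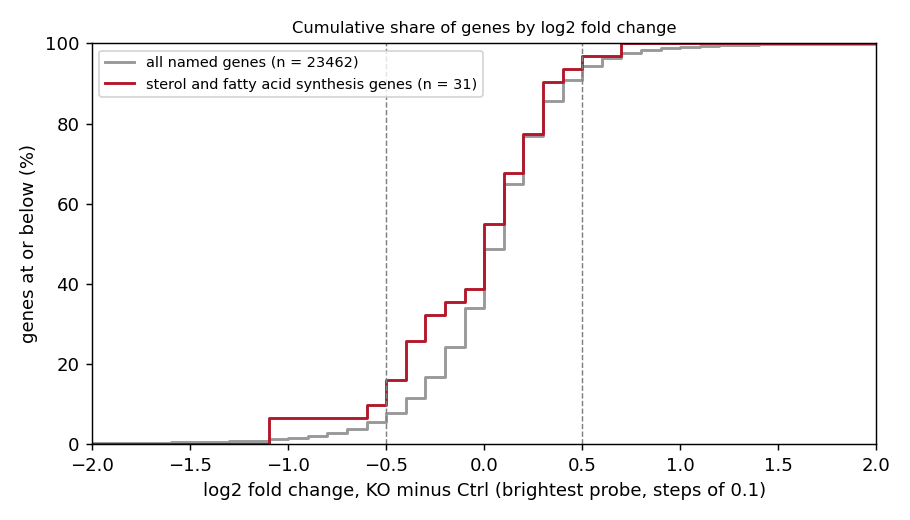
Cumulative percentage of genes by log2 fold change of KO minus Ctrl, in steps of 0.1, for the 31 sterol and fatty acid synthesis genes (red) and the 23462 named genes (grey). Dashed lines mark the fold threshold of 0.5. The red line lies above the grey one from its lowest genes up to zero, below which 17 of 31 genes fall, and runs close to it above zero.

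The 3 KO samples lay wholly below the 3 Ctrl samples for 8 genes and wholly above them for 7, together 15 of 31, against 32.2% of all genes (18% lower and 14.2% higher). The share was higher among genes with more signal. Among the 27 genes of the set with signal well above background throughout the 6 arrays, 14 did not overlap, against 39% of the 17222 genes measured that well, and 3 were called, against 6.49%. Idi1, Scd1 and Stard4 were not well above background on any array, and Insig1 was on 5 of 6.

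**Figure D3:**
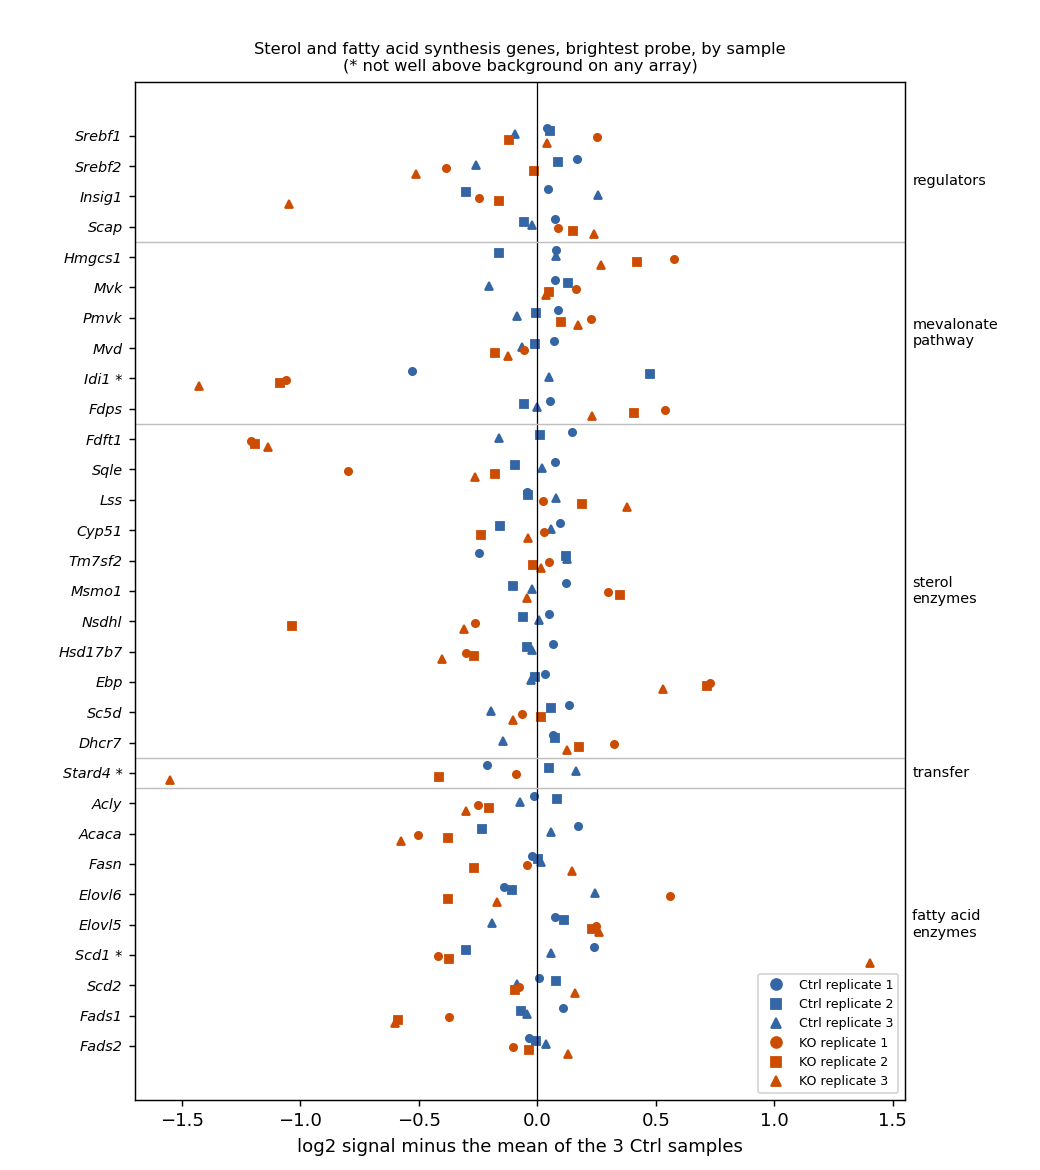
Log2 signal of each sample minus the mean of the 3 Ctrl samples, for the brightest probe of the 31 genes in order of their role; colours mark the genotype and symbols the replicate. Fdft1 and Ebp show the widest gaps between the groups among genes well above background, on opposite sides, and Scd1 and Stard4 show a single KO replicate 3 far from the rest.

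The regulators were examined first. Srebf1 signal was 8.75, 8.76 and 8.62 in Ctrl replicates 1 to 3 and 8.96, 8.59 and 8.75 in KO (log2 scale, as are all signals below). The groups overlapped, with a log2 fold change of 0.06 (95% confidence interval -0.23 to 0.35, adjusted p = 0.815 by limma). Srebf2 read 4.99, 4.91 and 4.56 in Ctrl and 4.44, 4.81 and 4.31 in KO. These groups overlapped too (-0.30, -0.74 to 0.14, adjusted p = 0.383).

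Insig1 is both a brake on SREBP processing and an SREBP target. It read 4.16, 3.81 and 4.37 in Ctrl and 3.87, 3.95 and 3.06 in KO. The lowest value, in KO replicate 3, was the array on which Insig1 did not clear its background, and the difference of -0.48 had a wide interval (-1.18 to 0.21, adjusted p = 0.377). Scap read 9.98, 9.85 and 9.89 in Ctrl and 10.00, 10.06 and 10.15 in KO. The groups did not overlap, by a gap of 0.01, and the difference of 0.16 did not pass the test (-0.04 to 0.35, adjusted p = 0.302). Of the 4 regulators, none was called by limma, and 0 had an unadjusted p under 0.05, against 25% of all genes.

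In the mevalonate pathway, Hmgcs1 condenses acetyl units at the start of the pathway. It read 7.61, 7.37 and 7.61 in Ctrl and 8.10, 7.95 and 7.80 in KO. All KO samples were above all Ctrl samples, and the difference of 0.42 ± 0.12 (SE, n = 3 each) did not pass the adjusted test (limma, adjusted p = 0.1). Fdps, which makes farnesyl diphosphate, read 8.11, 8.00 and 8.05 in Ctrl and 8.59, 8.46 and 8.28 in KO. The groups were again apart, with a difference of 0.39 ± 0.10 and an adjusted p of 0.0822.

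Pmvk, the second kinase of the pathway, read 7.78, 7.69 and 7.61 in Ctrl and 7.93, 7.80 and 7.87 in KO. The gap between the groups was 0.02 and the difference 0.17, and its other probe gave 0.17 as well. Idi1, the isomerase that makes dimethylallyl diphosphate, read 1.44, 2.44 and 2.01 in Ctrl and 0.90, 0.88 and 0.54 in KO. No array measured Idi1 well above background, so no fold is given (adjusted p = 0.0624). Mvk and Mvd overlapped between the groups on their brightest probes, with differences of 0.08 and -0.12. The 6 mevalonate genes had a median of 0.13, and none was called by limma, where 5.45% of all genes were. At an unadjusted p under 0.05, limma gave 1 lower (Idi1) and 2 higher (50%, against 25% of all genes).

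Squalene synthase, encoded by Fdft1, catalyses the first step committed to sterols. Its brightest probe read 11.15, 11.01 and 10.84 in Ctrl and 9.79, 9.81 and 9.87 in KO. The groups were separated by a gap of 0.97, and the KO mean was 0.443 times the Ctrl mean (log2 fold change -1.18 ± 0.10, SE, adjusted p = 0.00548 by limma). Its second probe read 7.99, 7.75 and 7.59 in Ctrl and 7.52, 7.63 and 7.48 in KO. That probe overlapped between the groups, at -0.23 (-0.53 to 0.07, adjusted p = 0.327). The brightest probe minus the second fell from 3.22 to 2.28 in KO, a change of -0.94. The mean of both probes gave -0.70, still called. With the row of the slide as a block, which left KO replicate 1 as the only KO sample beside the Ctrl samples in its row, the change was -1.21 and the adjusted p 0.0596.

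Ebp shifts a double bond in the sterol ring, late in the pathway. Its probe read 9.08, 9.04 and 9.02 in Ctrl and 9.78, 9.76 and 9.58 in KO. All KO samples were higher, by a gap of 0.50, and the KO mean was 1.58 times the Ctrl mean (0.66 ± 0.08, SE, adjusted p = 0.0145 by limma). The second Ebp probe read 9.40, 9.37 and 9.29 in Ctrl and 9.28, 9.26 and 9.21 in KO. It lay lower in KO, at -0.10 (-0.27 to 0.07, adjusted p = 0.457), and the 2 probes differed in their change by 0.76. The second probe was the brighter of the 2 in the Ctrl samples, so choosing the probe by Ctrl signal, an alternative added after the values were seen, left Ebp uncalled at -0.10. The mean of both probes was not called either (0.28, adjusted p = 0.0797). With the slide row as a block, the change was 0.73 and Ebp was not called. Leaving out any sample other than KO replicate 3 ended the call on an adjusted p of 0.0538 to 0.0712, with a change still of 0.62 to 0.68.

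**Figure D4:**
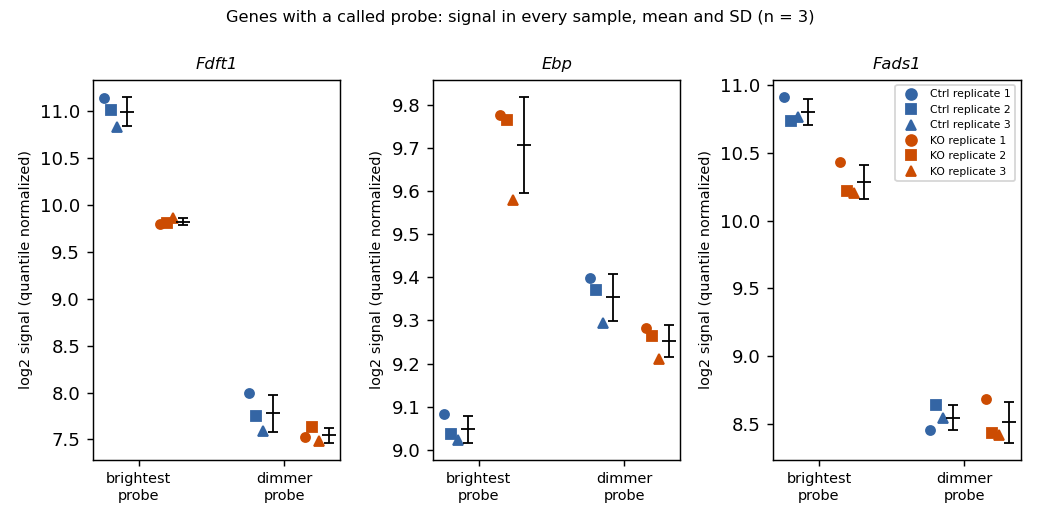
Log2 signal of each sample on both probes of Fdft1, Ebp and Fads1, with the mean and SD of each group (n = 3) beside the points; the vertical axes do not start at zero and differ between panels. The brightest probes separate the groups, and the second probes sit at -0.23, -0.10 and -0.04 for KO minus Ctrl.

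Beside Fdft1 and Ebp, the brightest probes of Sqle, Nsdhl, Hsd17b7 and Dhcr7 separated the groups without a call, so that 4 of the 11 sterol enzymes lay lower and 2 higher without overlap, where 18% and 14.2% of all genes did, and 39% in either direction of those measured as well as these 11. Sqle, the epoxidase that follows squalene synthase, read 5.38, 5.21 and 5.33 in Ctrl and 4.51, 5.13 and 5.04 in KO. KO replicate 1 was the lowest by far, and the difference was -0.41 (-0.86 to 0.03, adjusted p = 0.247). Nsdhl, a sterol dehydrogenase, read 6.67, 6.56 and 6.63 in Ctrl and 6.36, 5.59 and 6.32 in KO. There KO replicate 2 was the lowest, and the difference was -0.53 (-1.08 to 0.01, adjusted p = 0.225).

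Hsd17b7, a sterol ketoreductase, read 6.07, 5.96 and 5.98 in Ctrl and 5.70, 5.73 and 5.60 in KO. The replicates of each group lay close together, and the difference of -0.32 had an adjusted p of 0.0667 by limma; its other probe gave 0.10. Dhcr7, which makes cholesterol from its last precursor on one branch, read 7.54, 7.55 and 7.33 in Ctrl and 7.80, 7.65 and 7.60 in KO. This was a difference of 0.21 (adjusted p = 0.284).

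Lss, Cyp51, Tm7sf2, Msmo1 and Sc5d overlapped between the groups on their brightest probes, with differences from -0.08 (Cyp51) to 0.20 (Msmo1). Over the 11 sterol enzymes the median was -0.05. Stard4, which carries sterol between membranes, read 2.01, 2.27 and 2.39 in Ctrl and 2.13, 1.81 and 0.68 in KO. Its signal stayed near background in all 6 samples, and no fold is given.

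Among the fatty acid enzymes, Acly supplies cytosolic acetyl-CoA. It read 10.80, 10.90 and 10.74 in Ctrl and 10.56, 10.61 and 10.51 in KO. The groups were apart by 0.13, with a difference of -0.25 (-0.44 to -0.06, adjusted p = 0.121). Acaca, the carboxylase that commits carbon to fatty acids, read 7.20, 6.80 and 7.09 in Ctrl and 6.52, 6.65 and 6.45 in KO on its brightest probe. That was a difference of -0.49 (adjusted p = 0.0884). The 4 Acaca probes ran from -0.49 to 0.43, with the groups apart at both ends, and none was called. Fasn, the synthase itself, overlapped between the groups, at -0.05 (-0.35 to 0.24).

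Fads1 read 10.91, 10.74 and 10.76 in Ctrl and 10.43, 10.22 and 10.21 in KO. All KO samples were lower, by a gap of 0.31, and the KO mean was 0.698 times the Ctrl mean (-0.52 ± 0.10, SE, adjusted p = 0.0399 by limma). The second Fads1 probe read 8.46, 8.64 and 8.54 in Ctrl and 8.68, 8.43 and 8.42 in KO. It overlapped between the groups, at -0.04 (-0.29 to 0.22). The call ended with any 1 of the 6 samples left out, at changes of -0.59 to -0.46 and adjusted p of 0.0583 to 0.116. With the slide row as a block it was -0.37 (adjusted p = 0.248), and the mean of both probes was -0.28 (adjusted p = 0.131).

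Fads2, the delta-6 desaturase, is the neighbour of Fads1 in the RefSeq gene order, which runs Fads3, Fads2, Fads1, Fen1 and Tmem258. It read 11.00, 11.03 and 11.08 in Ctrl and 10.93, 11.00 and 11.17 in KO. The groups overlapped, and the 95% confidence interval of the difference was -0.22 to 0.21.

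Elovl5, which lengthens polyunsaturated fatty acids between those desaturase steps, read 10.10, 10.13 and 9.83 in Ctrl and 10.27, 10.25 and 10.28 in KO. All KO samples were higher, and the difference was 0.25 (-0.01 to 0.50, adjusted p = 0.226). Elovl6, which lengthens palmitate, and Scd2, a stearoyl-CoA desaturase, overlapped with differences of 0.01 and -0.0037. The interval was narrow for Scd2 (-0.25 to 0.25) and wide for Elovl6 (-0.65 to 0.67). Scd1 read 1.56, 1.02 and 1.38 in Ctrl and 0.90, 0.95 and 2.72 in KO, below the well-above-background mark throughout. The 9 fatty acid enzymes had a median of -0.0037, with Fads1 the 1 called, where 5.45% of all genes were.

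Probes of the same gene often disagreed. Of the 15 genes with several probes, 8 had probes that lay in opposite directions, and none had every probe called. The range between the lowest and highest log2 fold change of a gene had a median of 0.42. Fdft1 (0.94) and Acaca (0.92) had the widest ranges, then Ebp (0.76). Mvk, the first kinase of the mevalonate pathway, gave 0.08 on its brightest probe. Its other probe gave -0.44, with the groups apart (adjusted p = 0.0969 by limma). On its second probe Tm7sf2, a sterol reductase, was apart between the groups (0.37, adjusted p = 0.161), against 0.02 on the brightest. Lss gave -0.01 and -0.42 on its other probes, against 0.20 on the brightest, and Cyp51 gave 0.21, against -0.08. The other probes of Fads2 (0.13), Msmo1 (0.10), Acly (-0.08) and Elovl5 (0.09) lay nearer to their brightest ones, and that of Stard4 was not well above background. The 2 Pmvk probes gave the same 0.17. Where on its transcript each probe lies was not analysed here.

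KO replicate 3 lay farthest from the mean of its group for 11 of the 31 genes, more often than any other sample (3 to 5 each). Its root mean square deviation over the 31 genes was 0.31, against 0.12 to 0.22 in the others. Over the 27 genes well above background it was still the farthest sample most often, for 8 genes against 3 to 5 for each other sample. Its root mean square deviation there was 0.13, below KO replicates 1 (0.17) and 2 (0.16), so that the size of its deviation over all 31, though not the count, rested on genes at or near background such as Scd1, Stard4 and Insig1. Without it Fdft1 and Ebp were called and Fads1 was not.

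**Figure D5:**
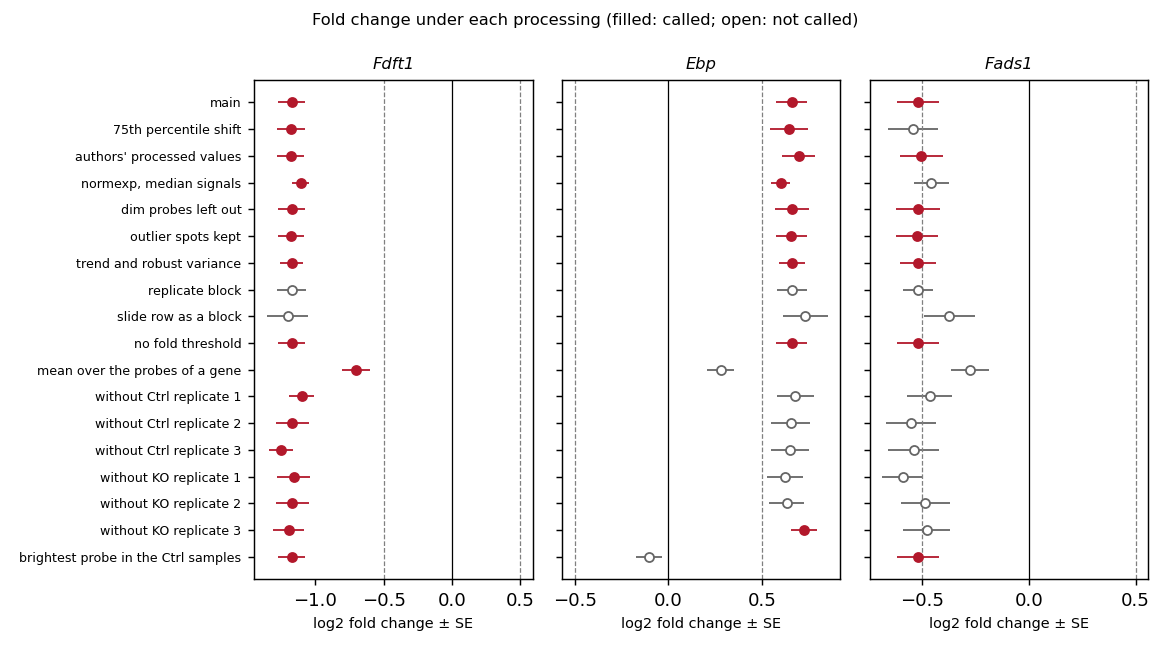
Log2 fold change ± SE of Fdft1, Ebp and Fads1 under the reported processing (top) and each alternative, with filled points where the gene was called and dashed lines at the fold threshold of 0.5. Fdft1 stays between -1.26 and -0.70, Ebp lies at -0.10 when its probe is chosen by Ctrl signal, and Fads1 is called in few of them.

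The wider pathway was then read from a list of 48 further genes, all measured. Of these, 2 were called lower in KO and 0 higher, where 4.01% and 1.44% of all genes were called. At an unadjusted p under 0.05 limma gave 8 lower and 3 higher (22.9%, against 25% of all genes). Cyb5r3, the reductase that passes electrons to cytochrome b5 for desaturases and sterol oxidases, read 9.30, 9.03 and 8.99 in Ctrl and 8.50, 8.57 and 8.31 in KO. All KO samples were lower, with a difference of -0.64 (adjusted p = 0.0395). Lpcat3, which puts polyunsaturated acyl chains into phospholipids, read 11.34, 11.27 and 11.38 in Ctrl and 10.81, 10.92 and 10.73 in KO. These groups did not overlap either, at -0.51 (adjusted p = 0.0265). Both calls ended with each sample left out in turn.

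The median over the 48 genes was -0.08, with 31 lower and 17 higher. The adjusted p alone, which 5.43% of all genes passed in the lower direction and 2.13% in the higher, added Hacd4 (-0.39, adjusted p = 0.0365), an elongation dehydratase, and Acsl3 (-0.43, adjusted p = 0.0377), an acyl-CoA synthetase. By role, 0 of 8 genes of SREBP control were called (Mbtps1, the site-1 protease that cuts SREBP, stood at -0.67 with an adjusted p of 0.0683 and its groups apart, and was called lower in 3 alternatives), 1 of 7 further sterol enzymes (Cyb5r3), 0 of 6 genes of sterol uptake and storage, 0 of 6 of fatty acid precursors, 0 of 14 of elongation and desaturation, and 1 of 7 of acyl activation (Lpcat3).

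The arrays had 70.1% to 75.5% of probes well above background and no saturated probe. Bhlhe41 itself was not lower in KO on either probe, at 0.38 (adjusted p = 0.330) and 0.33 (adjusted p = 0.203), so its transcript did not check the labels. Of 12 microglia markers all were well above background, with sums of 193141 to 207844 in Ctrl and 186904 to 195323 in KO and 1 called lower (Fcrls). Markers of some other cells moved with the genotype. The sum of 12 neutrophil markers was 31447 to 35373 signal units in Ctrl and 6267 to 6657 in KO. Of the 12, 9 were called lower, while Mmp8 (-0.61), Elane (-0.04) and Mpo (0.39, all KO samples higher) were not called. The sum of 12 border macrophage markers was 2583 to 2780 and 1801 to 1959. Among these, 5 were called lower, and the median log2 fold change was -0.87. Most of that sum was Stab1, which stood at -0.49 and was not called. The sum of 12 endothelial markers was 1366 to 1444 and 624 to 700, with 2 called lower. The endothelial fall lay in Ly6c1 (-1.79) and Pecam1 (-1.68), while Cldn5 (-0.13), Slco1a4 (0.04), Vwf (0.33) and Kdr (-0.01) were not called and the median of the list was 0.02. All 12 neutrophil markers and 8 of the border macrophage markers were well above background throughout, while Cdh5, Flt1, Tek, Tie1 and Emcn of the endothelial list were so on no array. Oligodendrocyte markers, of a cell type rich in sterol synthesis, summed to 3390 to 3648 in Ctrl and 3960 to 4210 in KO, with Opalin not above background. Astrocyte markers summed to 3509 to 3679 and 3794 to 3968, and neuron markers, nearly all of it Snap25, to 20896 to 23030 and 21667 to 22486. None was called in either by limma. At an unadjusted p under 0.05, 3 astrocyte genes were lower and 2 neuron genes (Stmn2 and Nefl) higher, both among the 6 of 12 neuron genes not above background. The part of these markers in the calls of Fdft1, Fads1, Ebp, Cyb5r3 and Lpcat3 was not tested.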

How the data were processed

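RNA of sorted microglia (3 Ctrl and 3 KO samples) was labelled with Cyanine-3 by the authors and hybridised to 1 slide of Agilent SurePrint mouse arrays. Row 1 of the slide held Ctrl replicates 1 to 3 with KO replicate 1, and row 2 held KO replicates 2 and 3. The deposited scanner files hold spot intensity values from Feature Extraction 11.5.1.1, background-subtracted and detrended within each array. The authors also deposited a table of quantile-normalised values, which rank with the scanner values on every array (Spearman 0.999999 to 1, median 5.11), so its genes were not centred. The log base of the deposited values is not stated and was taken as log2 from their range. It was used as an alternative.

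Here, log2 processed intensities were taken without control spots and outlier spots (95 to 136 flagged per array), quantile normalised, averaged per probe and fitted with limma 3.58.1 in R 4.3.3 (lmFit, eBayes), with no filter on signal. The fit had no covariate; the methods name limma and no covariate. P-values were adjusted over 56601 probes by the Benjamini-Hochberg method, and the fit was tested on simulated data. Probes were named by transcript accession through RefSeq (GRCm38.p6), which named 33767 of 56605 (59.7%). The array design used another build, so no coordinates of genes or probes are given, and those of the promoters are RefSeq's on GRCm38.p6. The number of arrays limits the precision. Every listed gene is reported by its brightest probe; values per sample are given for called genes, regulators and genes whose groups did not overlap, and for a few others shown for comparison (Scd1, Stard4, Fads2). Some single genes of the further lists are not reported here. The listed genes, the further pathway genes, the markers and the motifs were chosen with earlier results of these data known, so a count over a list is a description. The alternatives are given in the closing section.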

Additional observations from a re-analysis of the deposited data

How the results depend on the processing

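Each result was recomputed under 17 alternatives, of which 1 (the probe brightest in the Ctrl samples) was chosen after seeing the data. Over 524 pairs of a gene and an alternative, 24 changed a call, and 29 changed sign with neither value called. The median log2 fold change of the 31 genes ran from -0.0863 to 0.0325 with a sample left out and moved by less than the spread between samples under the other alternatives. The number of genes called lower (2) became 1 with the 75th percentile shift, with normexp background correction and with the mean over probes, and 0 with a block for slide row, and it was 1 to 2 with a sample left out (Fdft1, and Idi1 without Ctrl replicate 1). The number called higher (1, Ebp) became 0 with the slide row (0.73, adjusted p = 0.0923), with the mean over probes (0.28) and with the probe chosen by Ctrl signal (-0.10), and was 0 to 1 with a sample left out. Fdft1 was called in 15 of the 17, with adjusted p of 0.0178 to 0.0378 with a sample left out. Ebp was called in 8 and Fads1 in 6. Idi1, not well above background, passed with trend and robust variance (adjusted p = 0.0484) and without Ctrl replicate 1 (0.0485).

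Of the 48 further pathway genes, those called lower (2) became 1 with the table of the authors (Cyb5r3) and 1 with the mean over probes (Hacd4, -0.77), 0 with the slide row, 4 with no fold threshold, and 0 to 0 with a sample left out. They became 3 with dim probes left out and 3 with trend and robust variance, both adding Mbtps1 (adjusted p = 0.0322 and 0.035), and with normexp the 2 were Mbtps1 (0.0208) and Cyb5r3. Those called higher (0) became 1 with the table of the authors and 1 with normexp, both Oxsm (0.57 and 0.53), a mitochondrial fatty acid synthase. Over all genes, 940 lower and 339 higher calls became 638 and 153 with normexp, 116 and 84 with the slide row, and 1.56% to 2.99% of genes with a sample left out. The 75th percentile shift moved the median of all genes to 0.10 on the log2 scale, with 797 lower and 442 higher calls.

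Same-numbered samples correlated in their deviations at 0.0276, 0.0136 and 0.0478, and differently numbered ones at -0.0506 to 0.0281. All these values were small, and they do not settle whether the replicate numbers pair the samples. With the replicate block, 0 of the 31 genes were called lower and 0 higher, 0 of the 48 pathway genes were called lower, and 19 lower and 2 higher calls were left over all genes. Fdft1 then had an adjusted p of 0.0716, Ebp 0.0807 and Fads1 0.0865. The cause of these changes was not tested. No listed gene could be judged where its probes were not well above background, as for Idi1, Scd1 and Stard4.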
